A study of Mus musculus with 17 samples.

Results

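The genes of 10 matricellular proteins were followed day by day in cardiac fibroblasts (CFs) of the infarcted mouse heart: *Tnc*, *Wisp1*, *Thbs1*, *Thbs2*, *Thbs3*, *Thbs4*, *Sparc*, *Sparcl1*, *Smoc2* and *Tgfbi*. They were chosen by name, as the rows of the count table whose mouse gene identifier carries one of these symbols (*Wisp1* is also called *Ccn4*). The table lists 31053 genes, and all 10 were among the 14030 with enough counts to be tested. Myocardial infarction (MI) was induced by ligation of the left anterior descending coronary artery in C57BL/6 mice aged 8 to 10 weeks that were *Collagen1a1*-GFP+, and every group shared this genotype and treatment. Bulk RNA-seq was made of GFP+/CD31-/CD45- CFs sorted on each day from 1 to 6 days post-infarction (dpi). There were 4 libraries at 3 dpi, a single library at 5 dpi and 3 libraries on every other day. The 3 dpi libraries were named in another style than those of every other day, which shared a numbered series. What lies behind this difference in naming is not given, and it cannot be told apart from 3 dpi. GFP was driven by the *Col1a1* promoter, so cells entered the sort by the activity of a collagen gene that itself varied with time. CFs of uninfarcted hearts were not analysed here, so 1 dpi is the earliest reference.

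Matricellular proteins are secreted into the extracellular matrix but, unlike collagens, they are not building blocks of it. They bind matrix fibres, growth factors, proteases and cell surface receptors such as integrins, and so modulate adhesion, migration and matrix assembly. Most are scarce in the resting adult heart and are made in quantity after injury, when CFs leave their quiescent state, multiply and lay down the scar.

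Among the 10 genes, *Thbs4*, *Wisp1*, *Sparc*, *Thbs3* and *Thbs2* were higher at 6 dpi than at 1 dpi and *Thbs1* was lower. The calls of *Thbs4*, *Sparc* and *Thbs3* held in all 16 alternatives of this comparison. Those of *Wisp1*, *Thbs2* and *Thbs1* held in 12, 11 and 11, and were lost with a term for the sex-linked pattern of the libraries. *Wisp1* had its highest level in the 5 dpi library. *Tnc* differed among the days and had its lowest mean at 6 dpi. *Sparcl1*, *Smoc2* and *Tgfbi* passed no test of a difference between days in edgeR's fit of the 14030 genes to all libraries. For *Tgfbi* this depended on a single library and on which genes were tested. *Thbs4* had the largest change of the 10, 13.9-fold from 1 to 6 dpi.

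Total counts per library ran from 8021815 to 22029938 with a median of 14123952, so that 3 counts, the least taken as detected, corresponded to 0.136 to 0.374 CPM, which are counts scaled to the library size. This limit covers counting error only. The sort was reflected in the markers. *Col1a1* ran from 1600 to 16800 CPM, whereas *Ptprc*, which encodes CD45, reached at most 2.75 CPM and was at 0 in 12 of 17 libraries, and *Pecam1*, which encodes CD31, reached at most 12.8 CPM. Markers of other cells were nevertheless present at levels that differed between days. Values of some of them stand beside results, and the ranges of the remaining lists are given with the processing. *Xist*, transcribed from the inactive X chromosome, exceeded the Y-linked genes in every 4 and 6 dpi library and in replicate 1 of 1 dpi, and the reverse held in the other 10. The day and this sex-linked pattern therefore cannot be told apart between 3 and 4 dpi. Of the 1 dpi libraries, only replicate 1 shares the pattern of 6 dpi. Replicate 2 of 3 dpi stood apart from the other 3 libraries of its day, with 16800 CPM of *Col1a1* against 4810 to 5910. Levels are log2 CPM after TMM normalization with a prior count of 2, and errors of daily means are SD over libraries. The study describes its samples as biological replicates. The labels do not say which mice a library came from, so the p-values measure the spread between these libraries. In bulk RNA, fewer cells expressing a gene and less RNA per cell cannot be told apart.

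The sequence just before the transcription start was available for 6 of the 10 genes (RefSeq, GRCm38.p6). *Thbs1*, *Sparcl1*, *Smoc2* and *Wisp1* had no entry. The CAGA box, CAGACA, is the short element through which SMAD proteins act downstream of TGF-β. It was found on either strand within 250 bases before a start site in *Tnc*, *Thbs2*, *Thbs4* and *Sparc*, 4 of the 6 genes, and in 17.1% of 32841 mouse promoters. The GC box, GGGCGG, occurred in 4 of the 6 genes (32.7% of all promoters), the CCAAT box in 2 (33.9%), the TATA box, TATAAA, in 2 (12.4%), the TEAD motif, GGAATG, in 1 (12.6%) and the AP-1 motif, TGANTCA, in 0 (6.75%). The percentages count promoters, whereas a gene was counted if any of its start sites had the motif. Of the 2 start sites of *Tnc*, only the downstream one had a CAGA box. Such matches describe these letters in this window and are not evidence of binding. The nearest 120 bases are shown for the 5 of these genes whose levels differed between days, written 5′ to 3′ along the gene, with capitals marking a CAGA box (TGTCTG on the opposite strand), a GC box (CCGCCC on the opposite strand) or a CCAAT box (ATTGG on the opposite strand). For *Tnc*, the downstream of its 2 start sites is shown.
*Tnc*, chr4:64046937-64047056, minus strand: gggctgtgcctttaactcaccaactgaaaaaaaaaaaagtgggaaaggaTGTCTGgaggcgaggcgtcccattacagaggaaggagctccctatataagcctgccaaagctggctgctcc
*Thbs2*, chr17:14694263-14694382, minus strand: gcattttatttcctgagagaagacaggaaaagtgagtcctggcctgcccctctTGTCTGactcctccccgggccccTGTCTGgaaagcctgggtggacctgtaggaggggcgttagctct
*Thbs3*, chr3:89215060-89215179, plus strand: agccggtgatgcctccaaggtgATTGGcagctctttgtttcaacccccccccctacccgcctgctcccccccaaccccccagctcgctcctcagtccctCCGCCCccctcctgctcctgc
*Thbs4*, chr13:92794819-92794938, minus strand: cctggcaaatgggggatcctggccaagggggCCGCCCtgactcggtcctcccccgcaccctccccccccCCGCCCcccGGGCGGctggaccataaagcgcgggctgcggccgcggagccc
*Sparc*, chr11:55420081-55420200, minus strand: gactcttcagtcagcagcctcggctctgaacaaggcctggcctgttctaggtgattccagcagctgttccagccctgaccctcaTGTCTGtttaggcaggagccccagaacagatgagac
*Thbs2* carried 2 CAGA boxes in this stretch, at bases -67 to -62 and -44 to -39 counted from the start, and *Tnc* and *Sparc* carried 1 each, at -71 to -66 and -36 to -31. The box of *Thbs4* lay farther out, at -227 to -222, and its shown stretch held 3 GC boxes instead. The 250 bases before *Thbs4* were 70.8% G or C, against a median of 52.4% over all promoters and 46.8% for *Thbs2*.

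Over the whole time course, 7 of the 10 genes differed among the 6 days in edgeR's quasi-likelihood F-test, at a Benjamini-Hochberg p under 0.05 adjusted across every tested gene. In all, 15% of the 14030 genes did so. The 10 genes were chosen with earlier results of these data known, so shares and medians of all genes beside theirs are a description only. The 7 were *Thbs4* (adjusted p = 3.5e-06), *Wisp1* (9.0e-04), *Thbs3* (0.0037), *Tnc* (0.010), *Sparc* (0.012), *Thbs2* (0.021) and *Thbs1* (0.032). When a term for the sex-linked pattern was added beside day, 3 of the 7 remained past the threshold, namely *Thbs3*, *Thbs4* and *Wisp1*. The same term took the calls over all genes from 2099 to 1102. *Thbs1* passed in 16 of 27 alternatives, and was lost when any of 9 single libraries was left out (adjusted p = 0.050 to 0.12). The fit with the sex-linked term separates sex-linked pattern from day through the 1 dpi libraries alone. Replicates 1 and 2 of 1 dpi held both kinds of transcript, with 208.18 and 20.93 CPM of *Xist* beside 10.47 and 66.05 CPM of Y-linked genes. In the other libraries the lesser kind reached at most 0.78 CPM (Y-linked) or 3.2 CPM (*Xist*). From 1 to 6 dpi, 5 genes rose and 1 fell, whereas 6.91% of all genes rose and 5.21% fell, and the median log2 fold change was 0.90 for the 10 genes and 0.03 for all genes. In the comparison of 3 to 5 dpi with 1 to 2 dpi, 3 genes rose and 0 fell, beside 5.25% and 2.24% of all genes. The study followed these days to find when reparative CFs, the cells of the forming scar, appear.

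**Figure D1:**
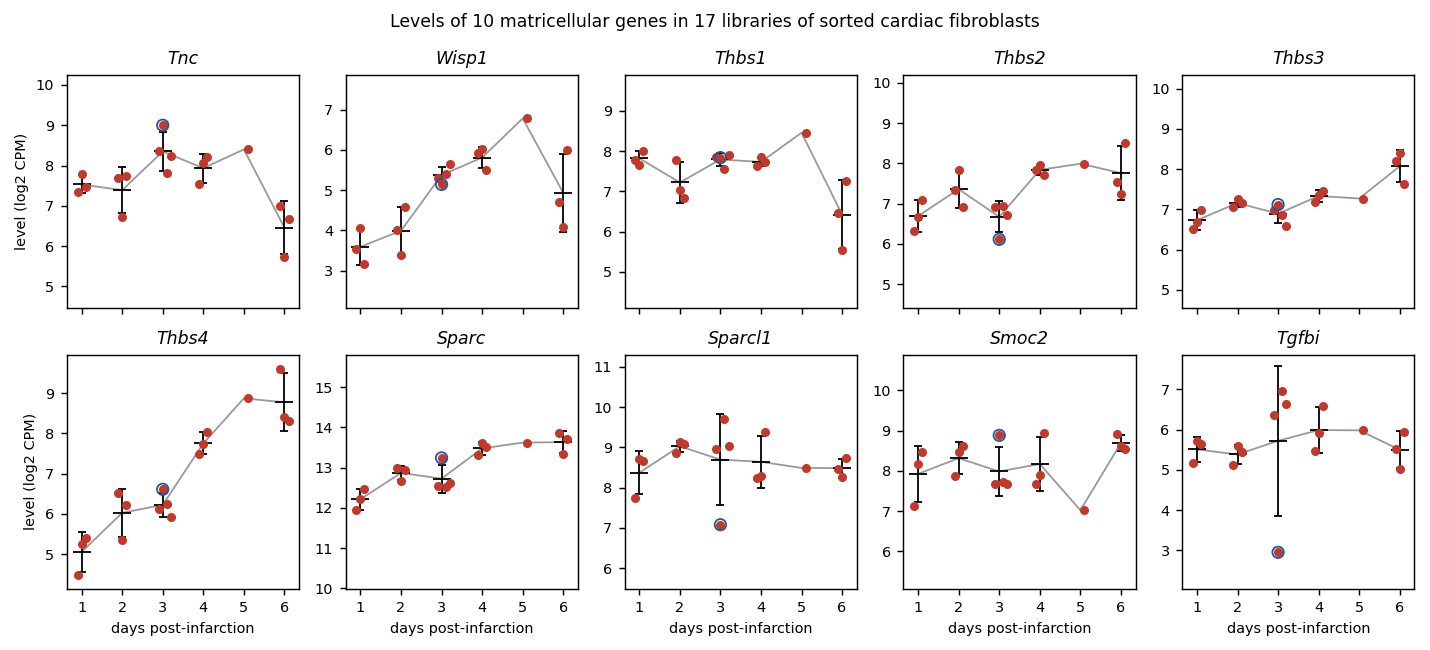
Level of each gene (log2 CPM, y axis) against days post-infarction (x axis). Each red point is 1 of the 17 libraries, the black dash and bar are the mean and SD of a day, and the grey line joins daily means. The blue ring marks replicate 2 of 3 dpi. All panels span the same number of log2 units but start at different levels, so only changes within a panel can be compared. *Thbs4* climbs from 5.05 at 1 dpi to 8.77 at 6 dpi, *Tnc* is lowest at 6 dpi, and the ringed library lies far below its day in *Tgfbi* and *Sparcl1*.

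Tenascin C, encoded by *Tnc* (ENSMUSG00000028364, chromosome 4, 63959785 to 64047015, minus strand, GRCm38), loosens cell adhesion and is made at the edges of wounds and infarcts. In single libraries, *Tnc* was 7.35, 7.78 and 7.46 at 1 dpi and 7.70, 6.72 and 7.74 at 2 dpi. It was 8.35, 9.0, 7.82 and 8.23 at 3 dpi and 7.53, 8.05 and 8.22 at 4 dpi. The 5 dpi library had 8.40 and the 6 dpi libraries 6.99, 5.72 and 6.66. All 4 libraries of 3 dpi thus lay above all 3 of 2 dpi, and all 3 of 6 dpi lay below every library of 1 and of 4 dpi. Its mean was 7.39 ± 0.58 (SD, n = 3) at 2 dpi. By 3 dpi the mean was 8.35 ± 0.49 (SD, n = 4), and by 6 dpi it had come down to 6.46 ± 0.66 (SD, n = 3). The difference between 3 and 2 dpi was a log2 fold change of 0.96 (SE 0.33, adjusted p = 0.12, edgeR), that between 6 and 4 dpi was -1.41 (SE 0.36, adjusted p = 0.062, edgeR) and that between 6 and 1 dpi was -0.99 (SE 0.35, adjusted p = 0.071, edgeR). None of these passed the adjustment, while DESeq2 on the same counts called all of them, with adjusted p = 0.044, 0.0070 and 0.042. *Tnc* kept its direction in each of these comparisons under every alternative tried.

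WISP1, the product of *Wisp1* (ENSMUSG00000005124, chromosome 15, 66891320 to 66923201, plus strand), belongs to the CCN family and is a target of Wnt signalling. Its levels were 3.54, 4.07 and 3.16 at 1 dpi and 4.02, 3.38 and 4.57 at 2 dpi. They were 5.31, 5.14, 5.40 and 5.64 at 3 dpi, 5.91, 6.01 and 5.50 at 4 dpi, and 6.78 in the 5 dpi library. At 6 dpi the libraries spread from 4.70 and 4.09 to 6.00. Each of the 8 libraries of 3 to 5 dpi lay above each of the 6 earlier ones, and 6 dpi overlapped both. *Wisp1* was higher at 3 to 5 dpi than at 1 to 2 dpi by 2.15 on the log2 scale (SE 0.28, 4.43-fold, adjusted p = 5.3e-05, edgeR). Within libraries whose Y-linked counts exceeded *Xist*, the difference was 2.21 (adjusted p = 7.9e-04, edgeR), and without the 5 dpi library it was 1.76 (adjusted p = 4.3e-04, edgeR). *Wisp1* was called in all 26 alternatives of this comparison. The step from 2 to 3 dpi was 1.32 (SE 0.38, adjusted p = 0.062, edgeR; adjusted p = 0.011 with DESeq2). The difference between 6 and 1 dpi, 1.52 (SE 0.40, adjusted p = 0.018, edgeR), rested in part on replicate 3 of 6 dpi, and without that library it was 0.79 (adjusted p = 0.11). It was also lost without replicate 1 or 3 of 1 dpi (adjusted p = 0.075 and 0.081) and with the sex-linked term (0.14). The same library decided the fall after 4 dpi. This was -0.67 (SE 0.39, adjusted p = 0.34, edgeR) with it and -1.41 (adjusted p = 0.019) without it.

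Thrombospondins 1 and 2 form subgroup A of their family, trimeric proteins that restrain angiogenesis through CD36 and CD47. Thrombospondin 1 also activates latent TGF-β, an activity that thrombospondin 2 lacks. The pair went in opposite directions between 1 and 6 dpi. *Thbs1* (ENSMUSG00000040152, chromosome 2, 118111876 to 118127133, plus strand) was 7.79, 7.67 and 8.01 at 1 dpi and 7.79, 7.03 and 6.85 at 2 dpi. The 4 libraries of 3 dpi had 7.86, 7.84, 7.57 and 7.91 and those of 4 dpi 7.63, 7.85 and 7.72. The level was 8.46 at 5 dpi and 6.46, 5.55 and 7.26 at 6 dpi. *Thbs1* thus held a narrow range at 1, 3 and 4 dpi, with daily means from 7.73 to 7.82, and every 6 dpi library lay below all libraries of those days. From 1 to 6 dpi it fell by 1.25 on the log2 scale (SE 0.33, 0.421-fold, adjusted p = 0.019, edgeR). The size depended on replicate 2 of 6 dpi, the lowest library, and without it the difference was -0.92 (adjusted p = 0.094). The call was also lost without replicate 1 or 3 of 1 dpi (adjusted p = 0.053 and 0.064), without replicate 1 of 6 dpi (0.084) and with the sex-linked term (0.12). Between 4 and 6 dpi *Thbs1* differed by -1.16 (SE 0.33, adjusted p = 0.088, edgeR, and 0.021 with DESeq2). The 5 platelet markers summed to 50.2 to 57.6 CPM at 1 dpi and 32.4 to 43.3 at 6 dpi. In the 5 dpi library, where *Thbs1* was highest, they summed to 27.8. Replicate 2 of 6 dpi had the highest mesothelial sum of all libraries, 584 CPM. The part of these cells in *Thbs1* was not tested.

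*Thbs2* (ENSMUSG00000023885, chromosome 17, 14665500 to 14694235, minus strand) was 6.31, 6.67 and 7.09 at 1 dpi and 7.33, 7.83 and 6.91 at 2 dpi. It was 6.92, 6.11, 6.93 and 6.72 at 3 dpi and 7.84, 7.95 and 7.72 at 4 dpi. The later libraries had 7.99 at 5 dpi and 7.54, 7.23 and 8.50 at 6 dpi. Levels at 3 dpi overlapped those of 1 dpi, and every library from 4 dpi on lay above every library of both days. From 3 to 4 dpi *Thbs2* rose by 1.14 (SE 0.30, 2.20-fold, adjusted p = 0.048, edgeR), and between 1 and 6 dpi it rose by 1.14 as well (SE 0.33, adjusted p = 0.030, edgeR). The first call was lost whenever any single library of 3 or 4 dpi was left out, with adjusted p from 0.059 to 0.16, and the second without replicate 1 or 2 of 1 dpi (0.14 and 0.094) or replicate 3 of 6 dpi (log2 fold change 0.66, adjusted p = 0.14). With the sex-linked term both were lost (adjusted p = 0.31 and 0.078), and the first was called in 6 of 17 alternatives. Without normalization factors the second was 1.00 (adjusted p = 0.084).

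Thrombospondins 3 and 4 are the pentameric subgroup B, with *Comp* as their closest relative. They do not block angiogenesis in the way of subgroup A, and thrombospondin 4 is known to be induced in the failing and pressure-loaded heart, where it acts inside cells in the stress response of the endoplasmic reticulum. *Thbs4* (ENSMUSG00000021702, chromosome 13, 92751590 to 92794818, minus strand) was 4.49, 5.26 and 5.41 at 1 dpi and 6.51, 5.36 and 6.21 at 2 dpi. It was 6.12, 6.61, 6.24 and 5.92 at 3 dpi and 7.48, 7.74 and 8.03 at 4 dpi. The 5 dpi library had 8.87 and the 6 dpi libraries 9.60, 8.40 and 8.31. Neighbouring days overlapped up to 3 dpi. Every 4 dpi library then lay above every earlier library, and every 5 and 6 dpi library above every 4 dpi library. From 1 to 6 dpi *Thbs4* rose by 3.79 on the log2 scale (SE 0.40, 13.9-fold, adjusted p = 7.7e-06, edgeR), and the call held in all 16 alternatives, with values from 3.25 to 4.41. From 3 to 4 dpi it rose by 1.52 (SE 0.33, 2.87-fold, adjusted p = 0.016, edgeR), a call that was lost without replicate 1 or 4 of 3 dpi or replicate 2 or 3 of 4 dpi (adjusted p = 0.050 to 0.060) and with the sex-linked term (0.21). Between 4 and 6 dpi it differed by 1.13 (SE 0.36, adjusted p = 0.11, edgeR; 0.031 with DESeq2).

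*Thbs4* was higher on later days in libraries of either sex-linked pattern, but each side rested largely on a single library. With more *Xist*, replicate 1 of 1 dpi was the only library before 4 dpi. With more Y-linked counts, the 5 dpi library was the only one after 3 dpi. Among those with more *Xist* it was 4.49 at 1 dpi, 7.48 to 8.03 at 4 dpi and 8.31 to 9.60 at 6 dpi. Among the others it was 5.26 and 5.41 at 1 dpi, 5.36 to 6.51 at 2 dpi, 5.92 to 6.61 at 3 dpi and 8.87 at 5 dpi. The comparison of 3 to 5 dpi with 1 to 2 dpi gave 2.02 (SE 0.26, adjusted p = 3.8e-05, edgeR), 1.84 within the libraries with more Y-linked counts (adjusted p = 0.0014) and 1.40 without the 5 dpi library (adjusted p = 0.0015). Within the libraries with more Y-linked counts, the 5 dpi library weighed as much in that comparison as all libraries of 3 dpi together. Transcripts of cardiomyocytes moved with *Thbs4* on some days. The 6 cardiomyocyte markers summed to 16.7 to 31.4 CPM at 1 dpi, 10.8 to 14.8 at 2 dpi, 5.76 to 9.36 at 3 dpi, 38.2 to 60.8 at 4 dpi, 14.0 at 5 dpi and 84.9 to 221 at 6 dpi, and 5 of the 6 rose from 1 to 6 dpi. Of their defining genes, *Actn2* was at 0 in 4 libraries. *Thbs4* was 8.87 in the 5 dpi library, where these markers summed to 14.0 CPM, less than in any 1 dpi library. Markers of mural cells, 6 in number, summed to 22.5 to 58.8 CPM at 1 dpi, 38.3 to 56.6 at 2 dpi, 55.6 to 98.0 at 3 dpi, 54.9 to 120 at 4 dpi, 176 at 5 dpi and 102 to 103 at 6 dpi, and 3 of the 6 rose from 1 to 6 dpi. The 5 dpi library, which had the highest *Wisp1* and a *Thbs4* level of 8.87, thus had the highest mural sum. The part of these cells in the levels of *Thbs4* and *Wisp1* was not tested.

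**Figure D2:**
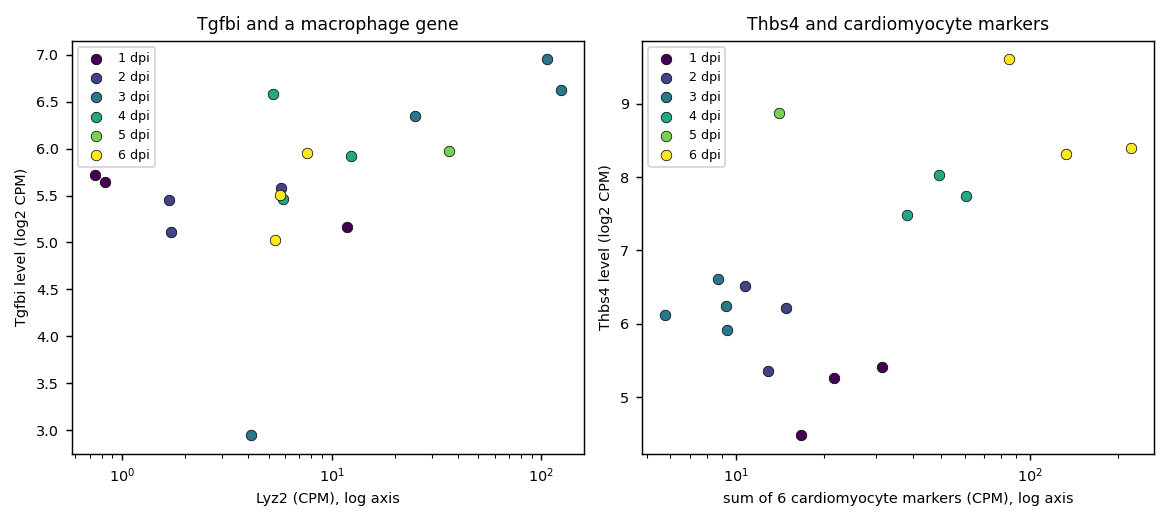
Levels of *Tgfbi* against *Lyz2*, a macrophage gene (left), and of *Thbs4* against the sum of 6 cardiomyocyte markers (right). Each point is a library coloured by day. The y axes are log2 CPM and the x axes CPM on a log scale. On the left, the 3 dpi library with the least *Lyz2*, 4.11 CPM, has the least *Tgfbi*, 2.95, although another macrophage gene, *Csf1r*, is highest in that library, at 32.6 CPM. On the right, the 5 dpi library combines 14.0 CPM of cardiomyocyte markers with a *Thbs4* level of 8.87.

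*Thbs3* (ENSMUSG00000028047, chromosome 3, 89215180 to 89226837, plus strand) moved later and less. The libraries had 6.51, 6.69 and 6.99 at 1 dpi and 7.06, 7.26 and 7.16 at 2 dpi. At 3 dpi they had 6.98, 7.12, 6.87 and 6.59 and at 4 dpi 7.18, 7.36 and 7.46. The 5 dpi library had 7.27, and those of 6 dpi 8.20, 8.39 and 7.63. Only the 6 dpi libraries exceeded 7.46, the highest level of the first 5 days. Between 1 and 6 dpi *Thbs3* rose by 1.36 on the log2 scale (SE 0.24, 2.57-fold, adjusted p = 0.0013, edgeR), and the call held in all 16 alternatives. The part of this rise between 4 and 6 dpi was 0.77 (SE 0.24, adjusted p = 0.10, edgeR; 0.024 with DESeq2). Exons of *Thbs3* overlap those of *Mtx1* on the opposite strand by 179 bases. Whether strand was used in counting is not given in the sources used here, so reads of the 2 genes cannot be told apart there.

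SPARC binds collagen and serves its assembly into fibrils, and mice without it are prone to rupture of the infarcted heart. *Sparc* (ENSMUSG00000018593, chromosome 11, 55394500 to 55423183, minus strand) took 0.386% of all counts in the lowest library and 1.37% in the highest. Its levels were 11.94, 12.23 and 12.47 at 1 dpi and 12.99, 12.67 and 12.94 at 2 dpi. They were 12.53, 13.24, 12.51 and 12.62 at 3 dpi and 13.30, 13.61 and 13.52 at 4 dpi. The 5 dpi library had 13.62 and the 6 dpi libraries 13.85, 13.34 and 13.71. All 1 dpi libraries lay below all others, and all libraries from 4 dpi on lay above all of 1, 2 and 3 dpi. Replicate 2 of 3 dpi, at 13.24, was the only one of its day near the later levels. The rise of *Sparc* between 1 and 6 dpi was 1.42 (SE 0.30, 2.67-fold, adjusted p = 0.0042, edgeR), called in all 16 alternatives. The step from 3 to 4 dpi was 0.72 (SE 0.27, adjusted p = 0.16, edgeR; 0.036 with DESeq2), and without replicate 2 of 3 dpi it was 0.93 (adjusted p = 0.028). At 3 to 5 dpi *Sparc* was higher than at 1 to 2 dpi by 0.73 (SE 0.21, adjusted p = 0.034, edgeR). Without the 5 dpi library, or within the libraries with more Y-linked counts, this was 0.57 and did not pass (adjusted p = 0.10 and 0.19). The call was lost as well without replicate 1 or 2 of 1 dpi, any replicate of 2 dpi or replicate 2 of 4 dpi (adjusted p = 0.060 to 0.095). In all, *Sparc* was called in 16 of 26 alternatives of this comparison.

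The other SPARC relatives did not follow *Sparc*. *Sparcl1* (ENSMUSG00000029309, chromosome 5, 104079111 to 104113733, minus strand) encodes hevin, an anti-adhesive protein also made by vessels, and *Smoc2* (ENSMUSG00000023886, chromosome 17, 14279506 to 14404790, plus strand) encodes a calcium-binding matrix protein. The lowest daily mean of *Sparcl1* was 8.37 ± 0.54 (SD, n = 3), at 1 dpi, the highest was 9.03 ± 0.14 (SD, n = 3), at 2 dpi, and each day overlapped the next in the order of the means. The largest spread was at 3 dpi, with 8.96, 7.08, 9.71 and 9.04. In the same libraries the 6 endothelial markers summed to 33.5, 16.1, 55.2 and 24.4 CPM, and their part in *Sparcl1* was not tested. The difference between 6 and 1 dpi was 0.07 (SE 0.44, adjusted p = 0.94, edgeR) and the time course did not pass (adjusted p = 0.77). The 1 dpi mean of *Smoc2* was 7.92 ± 0.70 (SD, n = 3) and its 6 dpi mean 8.69 ± 0.20 (SD, n = 3), with 7.02 in the 5 dpi library. The 3 libraries of 6 dpi, 8.92, 8.61 and 8.54, lay above the 3 of 1 dpi, 7.13, 8.17 and 8.47, by 0.67 (SE 0.39, adjusted p = 0.28, edgeR).

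TGFBI, an integrin-binding protein named for its induction by TGF-β, is also made by macrophages. *Tgfbi* (ENSMUSG00000035493, chromosome 13, 56609523 to 56639562, plus strand) was 5.16, 5.72 and 5.64 at 1 dpi and 5.11, 5.58 and 5.45 at 2 dpi. At 3 dpi the libraries had 6.35, 2.95, 6.95 and 6.63, so that this day held both the highest and the lowest level of the 17. The levels were 5.46, 5.92 and 6.58 at 4 dpi, 5.98 at 5 dpi and 5.51, 5.03 and 5.95 at 6 dpi. The time course of *Tgfbi* did not pass (adjusted p = 0.62, edgeR). Without replicate 2 of 3 dpi it did (adjusted p = 0.011), and *Tgfbi* was then higher at 3 than at 2 dpi by 1.28 (adjusted p = 0.014), against 0.90 (SE 0.52, adjusted p = 0.38) with it. *Tgfbi* was called in 2 of 27 alternatives of the time course and in 2 of 17 from 2 to 3 dpi. The latter included the fit with all libraries in which every gene with at least 1 count was tested. Macrophage transcripts also differed between these libraries, but not all in the same order. *Lyz2* was 25.0, 4.11, 106 and 124 CPM in the 4 libraries of 3 dpi, 36.3 in the 5 dpi library and 0.742 to 12.4 CPM at 1, 2, 4 and 6 dpi. *C1qa* was 6.38, 0.0805, 37.5 and 25.1 CPM at 3 dpi. By contrast, *Csf1r* was 6.56, 32.6, 8.92 and 18.8 CPM, so that the library with the least *Tgfbi* had the most *Csf1r* of all 17, and *Cd68* was 5.41, 9.50, 9.37 and 12.9 CPM. The 8 leukocyte markers summed to 43.7, 46.3, 167 and 187 CPM at 3 dpi, 61.9 at 5 dpi, 9.35 to 17.9 at 2 dpi, 9.73 to 31.5 at 1 dpi, 17.1 to 30.9 at 4 dpi and 15.5 to 30.8 at 6 dpi. Of the 7 tested, 2 rose from 2 to 3 dpi. *Ptprc* and *Adgre1*, each at 0 in 12 libraries, reached at most 2.75 and 1.64 CPM. The part of macrophage RNA in *Tgfbi* was not tested.

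Between consecutive days few of the genes passed. In the comparison of 2 with 1 dpi, 0 of the 10 passed in edgeR and 0 in DESeq2, with 2 and 3 at an unadjusted p under 0.05. In edgeR 0.157% of all genes rose and 0.0214% fell, and in DESeq2 0.556% and 0.185%. From 2 to 3 dpi, 0 passed in edgeR (3 at an unadjusted p under 0.05) and 2, *Tnc* and *Wisp1*, rose in DESeq2. Of all genes 1.82% rose and 1.12% fell in edgeR, and 4.68% and 2.69% in DESeq2. From 3 to 4 dpi, *Thbs2* and *Thbs4* rose in edgeR and 0 fell, beside 1.63% and 1.08% of all genes. DESeq2 called these and *Sparc* higher, beside 3.03% of all genes higher and 3.08% lower. From 4 to 6 dpi, 0 passed in edgeR (4 at an unadjusted p under 0.05) and 4 in DESeq2, *Tnc* and *Thbs1* lower and *Thbs3* and *Thbs4* higher. Over all genes 0.235% rose and 0.278% fell in edgeR, and 3% and 2.41% in DESeq2. All libraries of 2 and 3 dpi share a sex-linked pattern, as do all of 4 and 6 dpi. The 3 dpi libraries, however, were named in another style than those of every other day. Without replicate 3 of 6 dpi, edgeR called 5 of the 10 between 4 and 6 dpi: *Tnc*, *Thbs1* and *Wisp1* lower, *Thbs3* and *Thbs4* higher. Calls over all genes rose as well in that fit, to 4.05% higher and 5.94% lower.

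**Figure D3:**
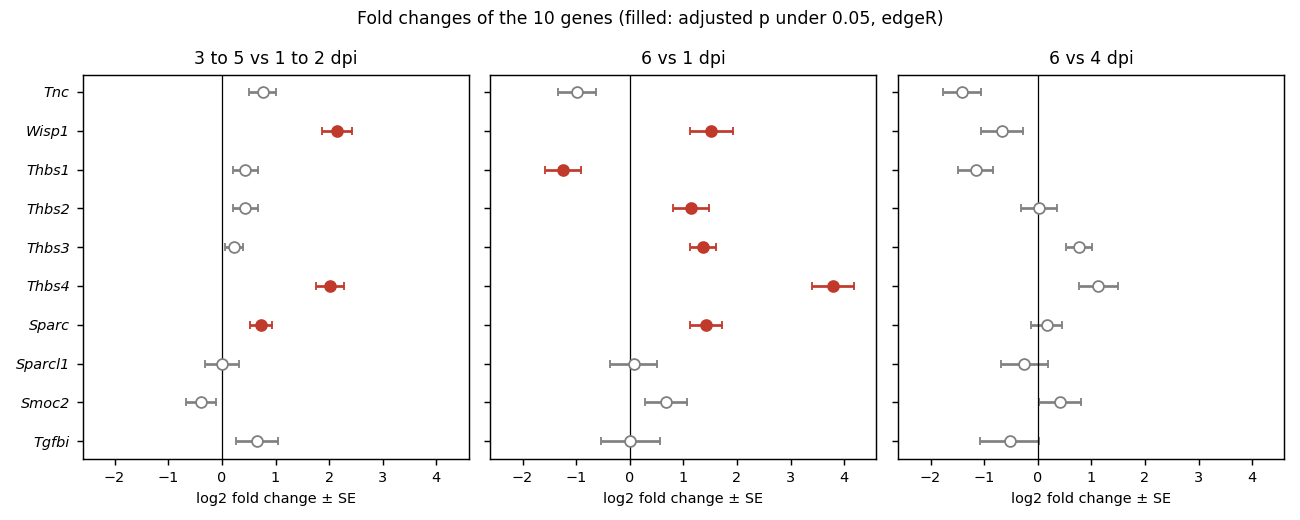
Log2 fold changes of the 10 genes with their standard errors (x axis) in the comparisons of 3 to 5 with 1 to 2 dpi, 6 with 1 dpi and 6 with 4 dpi. Filled red points have an adjusted p under 0.05 in edgeR and open points do not. From 1 to 6 dpi *Thbs4*, *Wisp1*, *Sparc*, *Thbs3* and *Thbs2* lie right of 0 and *Thbs1* left of it. The comparisons share libraries.

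Over the 17 libraries, which share their depth and composition between genes, the levels fell into patterns that are given here as a description. *Thbs4* and *Sparc* were the most alike of the 10 (Pearson r = 0.94), followed by *Sparcl1* and *Tgfbi* (r = 0.83), *Thbs3* and *Thbs4* (r = 0.82) and *Tnc* and *Thbs1* (r = 0.79). *Thbs1* and *Thbs3* were the most opposed (r = -0.74). Among all tested genes with a mean of at least 100 counts, those nearest to *Thbs4* were *Ddah1* (r = 0.936), *Ptn* (r = 0.933) and *Ltbp2* (r = 0.929). Nearest to *Wisp1* were *Fn1* (r = 0.923), *Cx3cl1* (r = 0.911) and *Arl4c* (r = 0.909). For *Thbs3* they were *Mfge8* (r = 0.957), *Man2b1* and *Ssc5d*, and for *Sparc* they were *C1qtnf6* (r = 0.915), *Pdgfrl* and *Mmp23*. The nearest gene was *1110004F10Rik* for *Tnc* (r = 0.903), *Slc41a2* for *Thbs1* (r = 0.893), *Trp53inp2* for *Thbs2* (r = 0.892), *Arhgap21* for *Sparcl1* (r = 0.932), *Aes* for *Smoc2* (r = 0.897) and *Twsg1* for *Tgfbi* (r = 0.910).

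**Figure D4:**
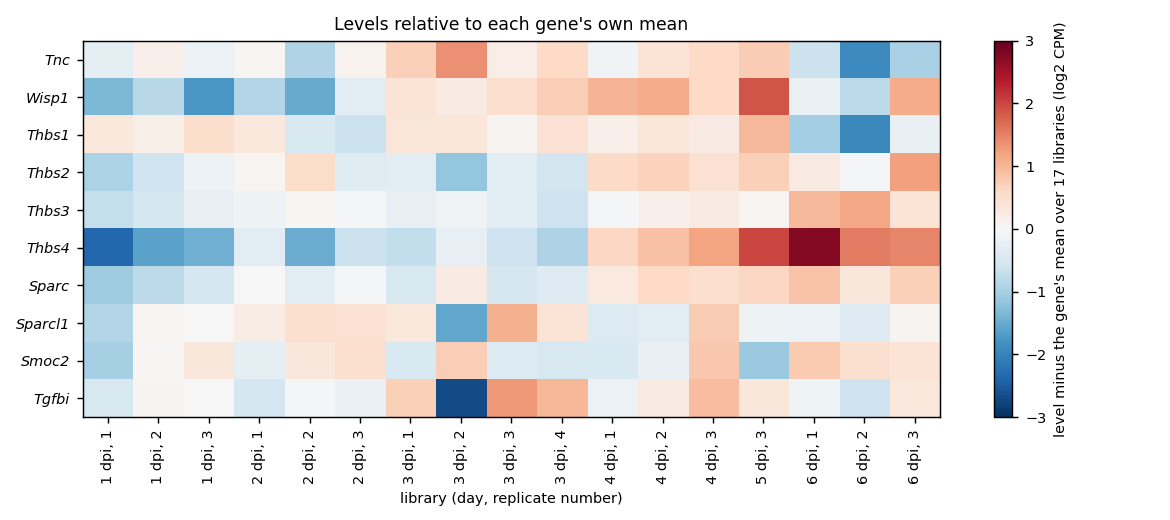
Level of each gene in each library minus the mean of that gene over 17 libraries (log2 CPM, colour scale from -3 to 3). Columns are libraries ordered by day and replicate number. *Thbs4* changes from blue at 1 dpi to red from 4 dpi on, *Tnc* and *Thbs1* are blue at 6 dpi, and *Tgfbi* and *Sparcl1* have their bluest cell in replicate 2 of 3 dpi.

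Other genes of the same pathways were followed in lists, which were likewise chosen with earlier results of these data known. Of 14 further matricellular genes, 12 were tested and 7 differed among the days, beside 15% of all genes. *Postn*, the periostin of the forming scar, rose by 2.32 on the log2 scale from 1 to 6 dpi (SE 0.36, adjusted p = 3.5e-04, edgeR) and reached its highest replicated mean, 11.46 ± 0.21 (SD, n = 3), at 4 dpi. *Comp*, the relative of *Thbs3* and *Thbs4*, rose by 3.26 (SE 0.57, adjusted p = 0.0012, edgeR), its 1 dpi mean being 4.57 ± 0.78 (SD, n = 3) and its 6 dpi mean 7.94 ± 0.23 (SD, n = 3). Osteopontin, *Spp1*, which macrophages also make, instead fell by 2.58 between 4 and 6 dpi (SE 0.57, adjusted p = 0.048, edgeR) after its highest mean, 8.14 ± 0.45 (SD, n = 4), at 3 dpi. Between 1 and 6 dpi 5 of the 12 rose and 0 fell, beside 6.91% and 5.21% of all genes, and their median was 0.79, against 0.03 for all genes. The 5 were *Postn*, *Comp*, *Wisp2*, *Tnn* and *Fstl1*, the last 3 named after their values were seen.

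Of 15 genes for integrins, syndecans and other cell surface receptors, 14 were tested. Among these 3 differed among the days, beside 15% of all genes, and the median from 1 to 6 dpi was -0.04. Over those days 1 rose and 1 fell, beside 6.91% and 5.21% of all genes. The integrin subunit gene *Itga5*, named after its values were seen, fell by 1.5 (SE 0.40, adjusted p = 0.020, edgeR). *Itgb5*, a subunit of vitronectin receptors, rose by 1.90 from 1 to 6 dpi (SE 0.26, adjusted p = 1.3e-04, edgeR), and by 1.35 between 4 and 6 dpi (SE 0.26, adjusted p = 0.034, edgeR). *Sdc1*, a heparan sulfate proteoglycan, was higher at 3 to 5 dpi than at 1 to 2 dpi by 0.83 (SE 0.25, adjusted p = 0.046, edgeR). *Itgb3* differed over the course (adjusted p = 0.048, edgeR), with 0.80 between 1 and 6 dpi (SE 0.29, adjusted p = 0.080).

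All 10 genes of a TGF-β signalling list were tested. The ligand *Tgfb3* rose by 1.14 from 3 to 4 dpi (SE 0.20, adjusted p = 0.0054, edgeR), and *Ltbp2*, a latent TGF-β binding protein relative, rose by 1.88 from 1 to 6 dpi (SE 0.27, adjusted p = 2.2e-04, edgeR). The inhibitor *Smad7*, a target of the pathway, rose by 1.42 from 2 to 3 dpi (SE 0.24, adjusted p = 0.0039, edgeR) and fell by 1.16 from 3 to 4 dpi (SE 0.23, adjusted p = 0.011, edgeR). Between 3 and 4 dpi the day and the sex-linked pattern cannot be told apart. With the sex-linked term, calls over all genes for that step went from 380 to 9. Values of the pathway genes under the alternatives are not given here. Between the first and the last day, *Tgfb3* rose by 1.67 (SE 0.22, adjusted p = 1.1e-04, edgeR), and the median over the 10 genes was -0.19.

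The next list held 8 genes, for collagens, to which SPARC and thrombospondins bind, and for a collagen chaperone. Of these, 4 differed among the days, beside 15% of all genes. At 3 to 5 dpi 5 were higher than at 1 to 2 dpi and 0 lower, beside 5.25% and 2.24% of all genes, with a median of 0.98 against -0.00 for all genes. *Col1a1* was higher in that comparison by 1.64 (SE 0.27, adjusted p = 6.1e-04, edgeR), *Col1a2* by 1.56 (SE 0.22, adjusted p = 1.0e-04, edgeR) and *Col3a1* by 1.41 (SE 0.22, adjusted p = 3.1e-04, edgeR). *Col1a1* drives the reporter by which the cells were sorted. Its mean level was 10.83 ± 0.17 (SD, n = 3) on the first day, 11.70 ± 0.16 (SD, n = 3) on the second and 13.08 ± 0.12 (SD, n = 3) by 4 dpi.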

How the data were processed

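Libraries were made with MARS-seq adapted to bulk RNA, in which poly-dT primes the 3′ end of each transcript, and levels were therefore not compared between genes. The authors used bcl2fastq (1.2.4) for demultiplexing, STAR with the mm10 genome for alignment and featureCounts for counting per gene. The deposited values are raw counts, without normalization. Collapsing of duplicates or molecular identifiers is not given in the sources used here. Libraries of a day differed by more than counting error (chi-square per degree of freedom from 23.11 to 230.77 in 18 pairs).

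Counts were tested in R (4.3.3) with the quasi-likelihood F-test of edgeR (4.0.16). Library sizes were TMM-normalized, the 6 days were the levels of a factor, and all 17 libraries entered the fit. The 14030 genes that had 10 or more counts in 3 or more libraries were tested, with Benjamini-Hochberg adjustment over them. The comparisons were the whole time course, 2 with 1, 3 with 2, 4 with 3, 6 with 4 and 6 with 1 dpi, and the mean of the 3, 4 and 5 dpi coefficients with that of 1 and 2 dpi. The 5 dpi library was not tested alone. A standard error is the log2 fold change divided by the square root of F. The alternatives were DESeq2 (1.42.0), other normalizations and filters, a robust spread, a block for the replicate number, a sex-linked term, subsets of days or libraries, and omission of 16 libraries singly. The fit was tested on simulated data.

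The genes, the pathway lists and the marker lists were chosen with earlier results of these data known. All 10 genes were named, with the up to 3 genes of each pathway list that had the smallest adjusted p in the time course and, for each of the 10, the 3 genes most correlated with it. Part of the TGF-β list is not reported here. *Thbs1*, *Thbs2*, *Thbs4*, *Tnc* and *Wisp1* also stand in lists the study made from single cells. Positions are from GENCODE on GRCm38, and 5 symbols were matched through RefSeq synonyms. Promoters were RefSeq's, GRCm38.p6. Marker lists not given in full with the results summed to 16.1 to 55.7 CPM (endothelial, 0 of 5 tested genes differed among days), 27.8 to 98.4 (platelet, 1 of 5), 12.4 to 584 (mesothelial, 0 of 5), 0.256 to 8.62 (Schwann, 0 of 2) and 10400 to 31900 (fibroblast, 5 of 7).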

Additional observations from a re-analysis of the deposited data

Results flagged for a closer look

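At 3 dpi, the only day with more than 3 libraries, replicate 2 lay far from the others in 3 of the 10 genes. The gap to its nearest neighbour made up 0.852 of the range of the day for *Sparc*, 0.947 for *Smoc2* and 0.852 for *Tgfbi*, each above the Dixon critical value for 4 libraries. For independent genes, chance would give about 0.5 such values among 10. These genes were read in the same libraries and are correlated, so that value is no reference for them. The share of all genes that stood this far out was not determined. Without replicate 2 of 3 dpi, calls over all genes rose from 2099 to 3462 over the time course. From 2 to 3 dpi they rose from 412 to 733. *Sparc* was 13.24 in that library against 12.51 to 12.62 in the others, *Smoc2* 8.88 against 7.66 to 7.72, and *Tgfbi* 2.95 against 6.35 to 6.95. The same library had 16800 CPM of *Col1a1* against 4810 to 5910, 4.11 CPM of the macrophage gene *Lyz2* against 25.0 to 124, and 32.6 CPM of *Csf1r*, another macrophage gene, against 6.56 to 18.8. The cause was not tested.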

How the results depend on the processing

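Of the values that passed a threshold in any setting, 0 turned sign. Among the 39 comparisons of a gene that were never called, 12 turned sign in some setting, with 37 such values. *Thbs4* was called in all 26 alternatives of 3 to 5 against 1 to 2 dpi, as was *Wisp1*. DESeq2 in place of edgeR called 2 genes from 2 to 3 dpi and 4 from 4 to 6 dpi, against 0 and 0, and testing every gene with at least 1 count gave 3 and 3. Calls over all genes rose too, from 412 to 1033 and 980 in the first comparison and from 72 to 759 and 882 in the second. From 3 to 4 dpi the 2 calls became 1 without normalization factors and 1 in a fit to the libraries of 3 and 4 dpi alone. Over all genes the 380 calls became 295 and 115. With the sex-linked term, 3 of 7 calls were left over the time course, 3 of 6 from 1 to 6 dpi and 0 of 2 from 3 to 4 dpi. Over all genes, 1102 of 2099, 779 against 1700 and 9 against 380 were called with the term and without it. Leaving out single libraries gave 0 to 2 calls from 2 to 3 dpi, 0 to 2 from 3 to 4 dpi, 0 to 5 from 4 to 6 dpi, 3 to 5 from 1 to 6 dpi, 2 to 4 for 3 to 5 against 1 to 2 dpi and 6 to 8 over the time course. The count of 2 from 2 to 3 dpi came without replicate 2 of 3 dpi, and that of 3 from 1 to 6 dpi without replicate 1 of 1 dpi. From 3 to 4 dpi the count was 0 without replicate 1 or 4 of 3 dpi or replicate 2 or 3 of 4 dpi. Calls over all genes varied as well when single libraries were left out. They ran from 48 to 733 from 2 to 3 dpi, 121 to 722 from 3 to 4 dpi and 3 to 1401 from 4 to 6 dpi. From 1 to 6 dpi they ran from 764 to 2580, for 3 to 5 against 1 to 2 dpi from 779 to 1601, and over the time course from 1312 to 3462. The cause was not tested.

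Replicate numbers did not pair the libraries: same-numbered libraries of different days deviated from their daily means with an average r of 0.0108 (30 pairs), and others with -0.00512 (72 pairs). With a replicate block, 0 of the matricellular genes followed here were called from 3 to 4 dpi and 5 over the time course. Calls over all genes were 243 and 1494 with the block, against 380 and 2099 without it. Libraries scaled by their raw totals moved the median log2 fold change of all genes by -0.17 from 1 to 6 dpi and by -0.10 from 3 to 4 dpi.

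The highest daily mean of *Tnc*, *Thbs1*, *Thbs2*, *Thbs4* and *Wisp1* was that of the single 5 dpi library. Without it, it was at 3, 1, 4, 6 and 4 dpi. With 3 libraries a day, a gene that did not pass is not shown to be unchanged.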
